A study of Homo sapiens with 9 samples.

Results

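The 3 control libraries of GIST-T1, a human cell line established from a gastrointestinal stromal tumour (GIST), are described here across all 23610 entries of the deposited expression table. They were chosen by their label alone, an sgRNA against Luciferase, and are 3 of the 9 libraries of a study of the anatomic and transcriptional determinants of GIST. The other 6 libraries carried an sgRNA against ETV1 (3 libraries) or against HAND1 (3 libraries) and are not used here. All 9 came from the same line and each carried an sgRNA, which the labels list under the tag knockdown; the labels name no Cas9 or repressor protein, dose or time. PolyA RNA was sequenced without keeping strand, so overlapping and antisense genes cannot be told apart.

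The control cells are thus not untouched cells, since they carry a guide RNA whose target, the enzyme Luciferase, is a reporter with no counterpart in the human genome. GIST-T1 is a single tumour line, and nothing in the labels states whether the 3 libraries came from separate cultures. The standard deviations (SD, n = 3) below are thus those of these libraries and may hold technical variation alone. No group is compared with another, and no p-value is given.

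GIST is the commonest mesenchymal tumour of the gut and is thought to share its origin with the interstitial cells of Cajal, the pacemaker cells between the muscle layers of the gut wall. Most GISTs carry an activating mutation of KIT, the receptor tyrosine kinase that binds stem cell factor, and signal from it through RAS, RAF, MEK and ERK. A small set of transcription factors, ETV1 among them, keeps KIT and other Cajal cell genes expressed.

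Levels are FPKM, fragment numbers scaled by transcript length and by library size, so that genes of different length can be set side by side. By the mean of the 3 libraries, 11308 entries (47.9%) reached 1 FPKM, 6577 (27.9%) reached 10 FPKM and 892 (3.78%) reached 100 FPKM. Only 41 entries reached 1000 FPKM. At the other end, 7807 were listed at 0 in all 3 libraries and 4495 lay above 0 and below 1 FPKM. Of the 18701 entries matched to a RefSeq protein-coding gene, 57.5% reached 1 FPKM, 34.5% reached 10 FPKM and 4.68% reached 100 FPKM, and these shares are the background for the gene lists below. These level classes are descriptive.

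**Figure D1:**
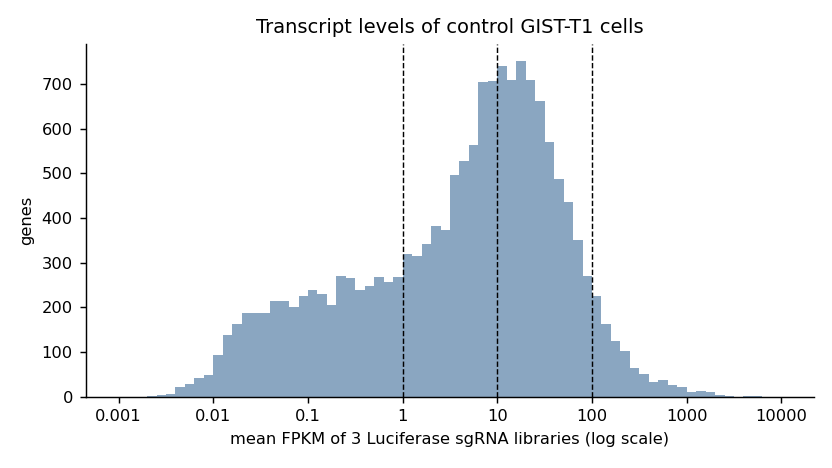
Number of genes (y axis) by mean FPKM of the 3 Luciferase sgRNA libraries (x axis, log scale, bins of 0.1 on the log10 scale), with dashed lines at 1, 10 and 100 FPKM. Entries with a mean below 0.001 FPKM, most of them listed at 0, are not drawn; most expressed genes lie between 1 and 100 FPKM and 892 lie at or above 100 FPKM.

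The libraries resembled each other in the number of genes at or above 1 FPKM (11284, 11317 and 11283 in replicates 1, 2 and 3) and in the upper quartile (12.4, 12.2 and 12.3 FPKM). Replicate 3 stood apart in short transcripts. Genes whose longest transcript in the GENCODE annotation is under 1000 nt (207 genes at or above 10 FPKM) had a median log2 ratio to the mean of the other libraries of 0.55 in replicate 3, against -0.43 in replicate 1 and -0.23 in replicate 2. Ribosomal protein genes held 9.37%, 10.03% and 13.2% of the summed FPKM. The depth relative to replicate 1, read from the spacing of the lowest values, was 0.874 in replicate 2 and 0.799 in replicate 3. Whether scaling or the length difference shifted these estimates was not tested. What sets replicate 3 apart was not tested. Values of the main genes are given for each library, and others as a mean with its SD.

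**Figure D2:**
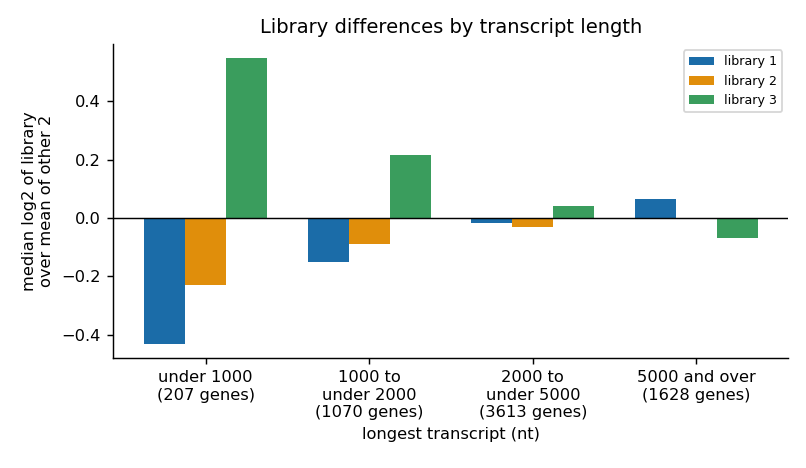
Median log2 ratio (y axis) of each Luciferase sgRNA library to the mean of the other libraries, for genes at or above 10 FPKM grouped by the length of their longest transcript (x axis, nt). The median of replicate 3 falls from 0.55 under 1000 nt to -0.07 from 5000 nt on.

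A value of 0 does not show that a gene is silent. Of 137 protein-coding genes between HLA-F and KIFC1 on chromosome 6, the neighbourhood of the major histocompatibility complex, 132 (96.4%) were below 0.1 FPKM, against 32.3% of all protein-coding genes. Among them are RPS18, a protein of every ribosome, and TUBB, a tubulin, both listed at 0. All 15 protein-coding genes between PLCXD1 and CD99 at the end of chromosome X were listed at 0 too, SLC25A6, an ADP and ATP carrier, among them. Genes of these neighbourhoods are named as such below and are not read as silent. They stay in the counts of lists and families, where those below 1 FPKM count as below it. Outside these neighbourhoods the ribosomal protein genes RPL21 (mean 0.0192 FPKM) and RPS28 (mean 0.712 FPKM) were low too. A value at or near 0 elsewhere therefore does not show absence either.

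All 9 genes taken as markers of these GIST cells were expressed, 8 of them above 100 FPKM. KIT, the driver receptor of GIST, stood at 216, 215 and 196 FPKM in replicates 1, 2 and 3, a mean of 209 ± 11.3 FPKM. ANO1, the calcium-activated chloride channel used as the diagnostic marker DOG1, stood at 170.4, 165 and 159 FPKM. DUSP6, a phosphatase induced by ERK that removes phosphate from ERK, stood at 181, 185 and 177 FPKM. These receptor, channel and feedback markers thus lay within a narrow band, and the values of each differed little between libraries.

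The 6 marker transcription factors spanned a wider range. PITX1, a homeodomain factor known from hindlimb development, was the highest at 351, 330.3 and 367 FPKM, and FOXF1, a forkhead factor of gut mesenchyme, followed at 311, 311 and 292 FPKM. OSR1, an odd-skipped zinc finger factor of intermediate and lateral mesoderm, stood at 241, 238 and 236 FPKM, and HIC1, a zinc finger repressor found in mesenchymal progenitors, at 199.7, 207 and 222 FPKM. HAND1, a basic helix-loop-helix factor of lateral mesoderm, stood at 116, 114 and 114 FPKM. ETV1, the ETS factor of Cajal cells, was the lowest of the 9 at 42.2, 39.4 and 37.4 FPKM, ranking 2445 among all entries, whereas PITX1 ranked 185. In the order of the 9 markers, HIC1 and KIT were the only neighbours whose 3 values overlapped.

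**Figure D3:**
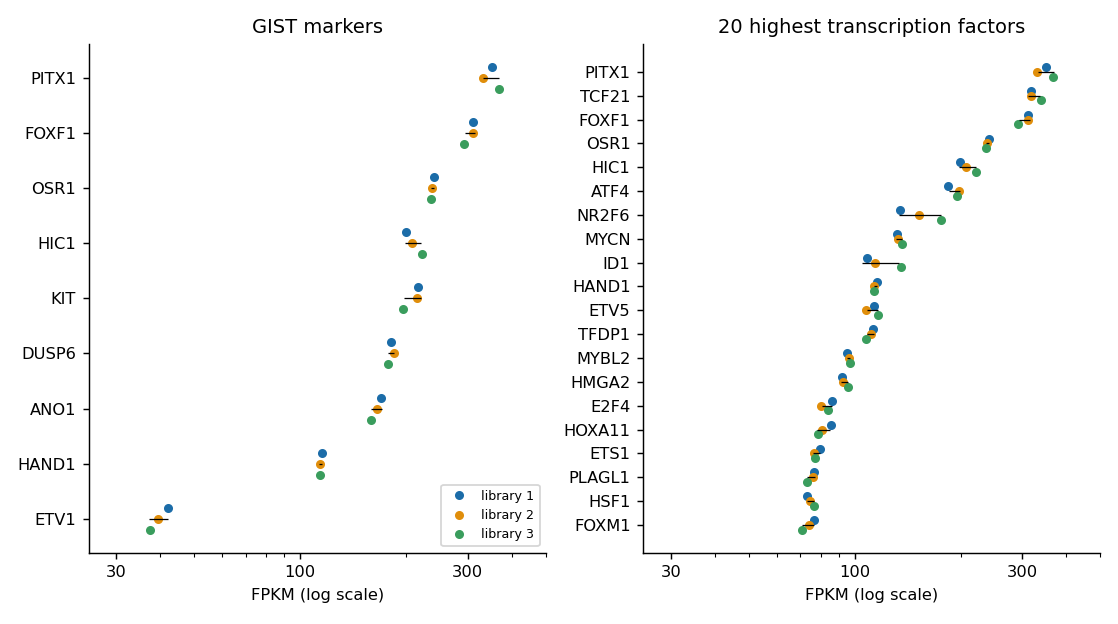
FPKM (x axis, log scale) in the 3 Luciferase sgRNA libraries (coloured points) of the 9 GIST markers (left) and the 20 highest of the listed transcription factors (right), each in order of its mean; black lines span the mean ± 1 SD. PITX1 and TCF21 overlap at the top of the right panel, and ETV1 stands apart at the foot of the left one at 39.7 FPKM.

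The wider list of Cajal cell and GIST genes held 24 genes, of which 19 reached 1 FPKM, 14 reached 10 FPKM and 8 reached 100 FPKM. Surface and secreted products led it. PLAT, the tissue plasminogen activator, stood at 2201, 2213 and 2355 FPKM and was the eighth highest of all entries. CD34, a surface sialomucin carried by most GISTs, stood at 1709, 1683 and 1648 FPKM. THY1, a surface glycoprotein of fibroblasts and stem cells, stood at 341, 359 and 368 FPKM, and PROM1, the membrane protein CD133, at 187, 175 and 163 FPKM. PLAT and CD34 were thus several times more abundant per length than KIT.

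RASL11A, a small GTPase of the RAS superfamily, stood at 201, 213 and 218 FPKM, between THY1 and PROM1 in every library. GPR20, an orphan G protein-coupled receptor known for its expression in GIST, stood at 84.9, 86.3 and 73.5 FPKM. PDE3A, a cyclic nucleotide phosphodiesterase, stood at 63.1, 60.1 and 54.2 FPKM. At the low end, PRKCQ, a protein kinase C used in GIST diagnosis, had a mean of 6.84 ± 0.232 FPKM, and KITLG, the ligand of KIT, one of 5.07 ± 0.238 FPKM. PTGER3 and CXCL14, a prostaglandin receptor and a chemokine, were listed at 0 in all 3 libraries. The list was therefore uneven, from the eighth rank down to 0.

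The lists of transcription factors held 636 genes in all, 635 of which were found in the table. Of these, 328 (51.7%) reached 1 FPKM, 155 (24.4%) reached 10 FPKM and 12 (1.89%) reached 100 FPKM, with a median of 1.33 FPKM. Each of the 3 shares is below the one over all protein-coding genes. The 12 listed factors at or above 100 FPKM were PITX1, TCF21, FOXF1, OSR1, HIC1, ATF4, NR2F6, MYCN, ID1, HAND1, ETV5 and TFDP1.

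After PITX1 came TCF21, a basic helix-loop-helix factor of visceral mesoderm and of fibroblast precursors, at 316, 318 and 339 FPKM, which overlapped PITX1 in its 3 values. FOXF1, OSR1 and HIC1 came next, each apart from its lower neighbour. ATF4, the basic leucine zipper factor of the amino acid and unfolded protein stress response, stood at 184, 198 and 195 FPKM. NR2F6, an orphan nuclear receptor of the COUP group, stood at 135, 153 and 176 FPKM, highest in replicate 3.

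From the eighth to the twelfth place the values of neighbours overlapped. MYCN, the MYC family member of neural and early embryonic tissue, stood at 132, 132 and 136 FPKM, while MYC itself stood at 1.97, 1.95 and 1.48 FPKM. In these cells MYCN was thus the more abundant MYC family transcript in every library. ID1, an inhibitor of basic helix-loop-helix factors that BMP signalling induces, stood at 108, 114 and 135 FPKM. ETV5, the ETS factor of the same PEA3 branch as ETV1, stood at 114, 108 and 116 FPKM, about the level of HAND1 and above ETV1 in each library. TFDP1, the dimer partner of E2F factors, had a mean of 111 ± 2.56 FPKM.

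The next 8 factors of the lists lay between 73.6 and 95.9 FPKM in their means. The order is that of the listed factors only. ZNF664 (94.8 FPKM) and ZNF207 (82.0 FPKM), counted with the ZNF genes below, are not in it. MYBL2 (95.9 ± 1.02 FPKM), E2F4 (83.5 ± 2.84 FPKM) and FOXM1 (73.6 ± 2.84 FPKM) are factors of the cell cycle. HMGA2, a chromatin-bending protein of embryonic cells, had a mean of 93.4 ± 2.16 FPKM, and PLAGL1, an imprinted zinc finger factor, one of 75.1 ± 1.91 FPKM. HOXA11 had a mean of 81.5 ± 3.40 FPKM, ETS1 one of 77.9 ± 1.69 FPKM and HSF1, the heat shock factor, one of 74.8 ± 1.56 FPKM. The differences among these 8 were small, and only HMGA2 and ETS1 did not overlap the factor below them.

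Within the families, few members carried most of the level. Of 28 ETS factors 17 reached 1 FPKM, with ETV5, ETS1, GABPA (44.6 FPKM), ELK1 (41.1 FPKM), ETV1 and ETV4 (33.5 FPKM) the highest, so that the whole PEA3 group of ETV1, ETV4 and ETV5 was expressed. FLI1, an ETS factor of blood and endothelium, was listed at 0. Of 83 basic helix-loop-helix factors 45 reached 1 FPKM, among them 7 of 9 factors of mesoderm but 0 of 4 of muscle, such as MYOD1 and MYF5 (both listed at 0), and 0 of 13 of neural tissue. HAND2, the closest relative of HAND1, stood at 34.4, 37.3 and 40.1 FPKM and lay below HAND1 in every library.

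Of 42 forkhead factors 18 reached 1 FPKM and only FOXF1 reached 100 FPKM. FOXF2, its closest relative, stood at 4.014, 3.00 and 3.599 FPKM. FOXA2, a factor of endoderm, was listed at 0 in replicates 2 and 3. Of 17 T-box factors 8 reached 1 FPKM, led by TBX2, a repressor, at 27.9, 28.2 and 28.0 FPKM, TBX3 (9.53 FPKM) and TBX5 (8.08 FPKM). GATA4, a factor of heart and gut mesoderm, stood at 8.86, 8.54 and 8.61 FPKM, and GATA2, known from blood and mast cells, at 4.20, 4.995 and 5.47 FPKM, while GATA6 stood at 0.392, 0.299 and 0.523 FPKM. Among 19 SOX factors SOX4 was the highest with a mean of 54.1 ± 3.27 FPKM, and SOX3, a factor of the early nervous system, was listed at 0.

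The list of homeobox factors outside the HOX and TALE families held 114 genes, of which 33 (28.9%) reached 1 FPKM and 9 reached 10 FPKM. PITX1 alone reached 100 FPKM, and its relative PITX3 (0.657, 0.468 and 0.518 FPKM) stayed below 1 FPKM in every library. BARX1, the homeodomain factor of stomach mesenchyme, stood at 52.8, 61.9 and 65.3 FPKM. Of 15 endoderm factors 1 reached 1 FPKM, and of 9 PAX factors 0 did.

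Zinc finger and nuclear receptor factors showed the same unevenness. After OSR1 and HIC1, PLAGL1 and EGR1, an immediate early gene of ERK signalling at 65.1, 68.7 and 68.1 FPKM, were the highest of 82 zinc finger factors, 42 of which reached 1 FPKM. Of 48 nuclear receptors 17 reached 1 FPKM; after NR2F6 came ESRRA, an orphan receptor of mitochondrial genes, at 29.2, 33.6 and 43.0 FPKM. ESR1, the oestrogen receptor, was listed at 0.

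HOX genes, which lie in 4 clusters and encode position along the body axis, were expressed from all clusters. Of 39 HOX genes 25 reached 1 FPKM, 11 reached 10 FPKM and 0 reached 100 FPKM. HOXA11 was the highest at 85.3, 80.5 and 78.7 FPKM, followed by HOXC10 at 47.7, 46.8 and 44.5 FPKM, HOXD1 at 39.3, 40.5 and 42.8 FPKM and HOXB2 at 30.3, 29.9 and 29.4 FPKM. These 4 belong to 4 different clusters and to both the anterior and the posterior ends of them. With their means, HOXD8 (22.2 FPKM), HOXB7 (18.6), HOXB13 (16.9), HOXD4 (14.3), HOXA7 (12.6), HOXD13 (11.1) and HOXC6 (11.0) made up the rest at or above 10 FPKM.

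Neighbours within a cluster differed widely. In the A cluster HOXA11 lay next to HOXA10, which stood at 0.601, 0.776 and 0.298 FPKM, and near HOXA9, which was listed at 0 in replicates 1 and 3 and at 0.00017 FPKM in replicate 2. HOXA13 had a mean of 1.96 ± 0.119 FPKM, and HOXA4 one of 1.89 FPKM, while HOXA3, HOXA2 and HOXA5 had means of 0.990, 0.472 and 0.144 FPKM. HOXA6 was listed at 0 in replicates 2 and 3. The high level of HOXA11 was thus that of a single gene between low neighbours. HOX genes of a cluster overlap antisense RNAs, which an unstranded library counts together with them.

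By their means, in the B cluster HOXB9 (8.79 FPKM), HOXB3 (2.56) and HOXB6 (1.05) were low and HOXB5 (0.746) and HOXB8 (0.616) were below 1 FPKM. HOXB1 was listed at 0 in all 3 libraries and HOXB4 in replicates 1 and 3. The C cluster had 8 of 9 genes at or above 1 FPKM, against 5 of 11 in A, 6 of 10 in B and 6 of 9 in D. Besides HOXC10 and HOXC6 these were HOXC11 (9.10 FPKM), HOXC13 (7.04), HOXC9 (6.48), HOXC4 (4.14), HOXC5 (2.75) and HOXC8 (1.69), and HOXC12 was listed at 0 in replicates 1 and 3. In the D cluster HOXD3 (5.80 FPKM) and HOXD11 (2.89) were above 1 FPKM, and HOXD10 (0.461) and HOXD9 (0.252) below it, and HOXD12 stood at 0.170, 0 and 0.436 FPKM.

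**Figure D4:**
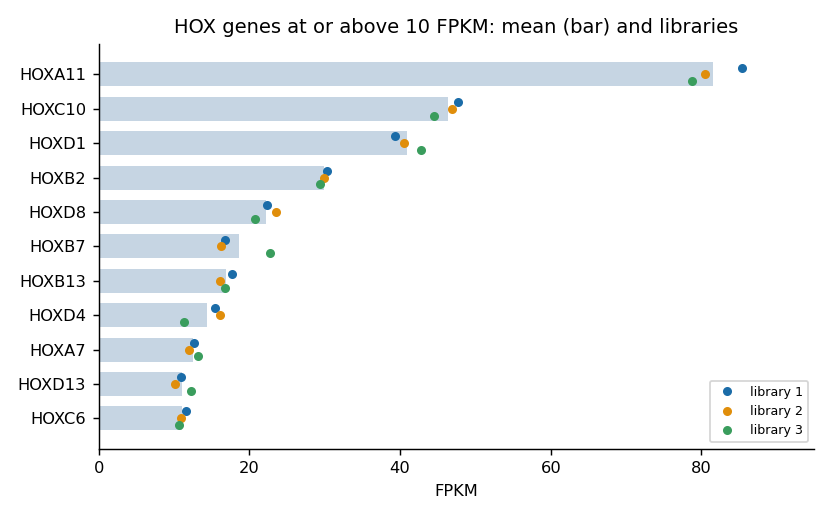
FPKM (x axis) of the 11 HOX genes whose mean reached 10 FPKM (y axis, in order of their means); bars are means and points the 3 Luciferase sgRNA libraries. HOXA11 at 81.5 FPKM is the highest, and the points of each gene lie close to its mean beside the gap from HOXA11 to HOXC10.

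The TALE homeodomain proteins, with which HOX proteins bind DNA, were present too. MEIS2 stood at 55.6, 54.1 and 57.3 FPKM and MEIS1 at 29.1, 27.8 and 28.3 FPKM. MEIS3 was listed at 0 in replicates 1 and 3, and the low values of PBX2 fall in the chromosome 6 neighbourhood named above. IRX1, an Iroquois factor, was listed at 0. In all, 10 of 18 TALE genes reached 1 FPKM and 4 reached 10 FPKM.

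Promoter sequences were set beside these levels for 11883 genes (50.3% of the entries) that have 1 listed start in the RefSeq table (assembly GRCh38.p14, another build than the files' hg19). The letters searched were the dinucleotide CG in the 250 bases before the start and TATAAA on either strand from 45 to 15 bases before it. The median number of CG was 4 for the 3275 genes listed at 0, 14 for genes between 0 and 1 FPKM, 22 from 1 to under 10 FPKM, 23 from 10 to under 100 FPKM and 22 for the 523 genes at or above 100 FPKM. TATAAA was found in 10.02%, 5.13%, 2.504%, 1.248% and 5.16% of these classes, against 4.81% of all 11883 promoters. The genes listed at 0 and those expressed thus differed in CG, while the 3 expressed classes did not differ much from each other.

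Among the listed transcription factors alone the same classes had medians of 14, 20, 26, 25 and 17.5 CG, the last over 6 genes. The 6 stretches that follow are the 100 bases just before the RefSeq start, 5′ to 3′ on the gene's strand, with each CG in capitals. They were chosen after their values were seen, to show expressed regulators with many and with few CG, and factors listed at 0 with many and with few CG. KIT (chr4:54657857-54657956, plus strand) has 34 CG in its 250 bases, HAND1 (chr5:154478228-154478327, minus strand) 16, HOXA11 (chr7:27185233-27185332, minus strand) 11 and TCF21 (chr6:133889013-133889112, plus strand) 5. IRX1 (chr5:3595732-3595831, plus strand) has 29 CG and PRRX1 (chr1:170664031-170664130, plus strand), a homeodomain factor of limb mesenchyme, 6, and both were listed at 0 in all 3 libraries.
KIT: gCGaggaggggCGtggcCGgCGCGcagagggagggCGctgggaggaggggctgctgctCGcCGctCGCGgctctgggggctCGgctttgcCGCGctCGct
HAND1: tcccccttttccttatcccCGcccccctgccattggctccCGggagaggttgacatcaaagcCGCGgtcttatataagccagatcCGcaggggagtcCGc
HOXA11: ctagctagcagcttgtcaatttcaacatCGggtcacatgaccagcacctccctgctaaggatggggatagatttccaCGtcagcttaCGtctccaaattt
TCF21: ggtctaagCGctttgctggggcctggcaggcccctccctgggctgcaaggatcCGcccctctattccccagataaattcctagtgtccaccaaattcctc
IRX1: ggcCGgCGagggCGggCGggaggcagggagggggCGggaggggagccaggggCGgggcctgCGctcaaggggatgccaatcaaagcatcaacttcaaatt
PRRX1: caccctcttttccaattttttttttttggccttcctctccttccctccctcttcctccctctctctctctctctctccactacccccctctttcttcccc
TCF21, the second highest of the listed transcription factors at 324 FPKM, thus has fewer CG before its start than IRX1. These letters describe single promoters, and their part in the levels was not tested.

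Receptor tyrosine kinases were expressed unevenly around KIT. Of 58 receptors 27 (46.6%) reached 1 FPKM, 10 reached 10 FPKM and 2 reached 100 FPKM. The other receptor above 100 FPKM was FGFR2, a receptor of fibroblast growth factors, at 113, 118 and 109.9 FPKM. PTK7, a catalytically inactive receptor of planar polarity, stood at 62.1, 61.1 and 61.4 FPKM, EPHB3, a receptor of B-type ephrins, at 55.2, 57.2 and 55.4 FPKM, and FGFR1 at 43.5, 43.1 and 39.5 FPKM. PDGFRA, the receptor mutated in some GISTs that lack a KIT mutation, stood at 16.3, 15.8 and 14.6 FPKM, below KIT by an order of magnitude in every library.

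Several receptors known from other tumours were low. CSF1R and FLT3, receptors of blood cells in the same class as KIT, reached at most 0.0615 and 0.0512 FPKM in a library. KDR, the main receptor of VEGF, was listed at 0 in replicates 1 and 3. MET (0.191 FPKM), AXL (0.0475 FPKM), IGF1R (0.606 FPKM) and INSR (0.982 FPKM) had means below 1 FPKM. DDR1, which lies in the chromosome 6 neighbourhood, is not read.

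Of 72 ligands of these receptors 28 reached 1 FPKM and only IGF2 reached 100 FPKM. IGF2, an imprinted growth factor, stood at 813, 787 and 752 FPKM. It shares an imprinted region with H19, a long noncoding RNA that was the second highest of all entries at 4123, 4374 and 6684 FPKM. IGF1R and INSR, the receptors through which IGF2 signals, were thus low beside their ligand. FGF14, a member of the fibroblast growth factor family that stays inside the cell, stood at 68.2, 66.8 and 64.3 FPKM, and GDNF, the ligand of RET and its co-receptors, at 27.1, 26.8 and 23.8 FPKM. Of the FGF family 3 of 22 members reached 1 FPKM, whereas all 8 ephrins did, led by EFNB1 (35.2 FPKM) and EFNB2 (27.9 FPKM).

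The genes that carry and restrain the ERK and PI3K signals were widely expressed. Of 43 such genes 38 (88.4%) reached 1 FPKM, 25 reached 10 FPKM and 5 reached 100 FPKM. Of these 5, 3 were feedback inhibitors: SPRY2 stood at 277, 284 and 270.3 FPKM, SPRY4 at 166, 169.6 and 159.6 FPKM, and DUSP6 as given above. Sprouty proteins restrain receptor signalling upstream of RAF. AKT1, a kinase downstream of PI3K, stood at 134, 128 and 139 FPKM. All 12 RAS genes and adaptors and all 7 genes from RAF to ERK reached 1 FPKM, among them MAP2K2, a MEK kinase (74.7 ± 2.12 FPKM), and MAPK3, the kinase ERK1 (73.2 ± 1.65 FPKM). The kinases of immune cells PIK3CD (0.0841 FPKM) and PIK3CG (0.172 FPKM) stayed below 1 FPKM.

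In the WNT pathway, receptors were expressed more widely than ligands. Of 19 WNT ligands 5 reached 1 FPKM, WNT5A the highest at 11.4, 10.8 and 10.9 FPKM, and WNT1 and WNT2 were listed at 0. Of 12 WNT receptors 11 did, led by LRP5 (71.7 ± 3.19 FPKM) and FZD8 (41.5 ± 2.42 FPKM). The secreted WNT antagonists SFRP1, at 116, 115 and 119.9 FPKM, and DKK4, at 92.5, 95.6 and 90.0 FPKM, were the highest genes of the pathway, although only 4 of 12 antagonists reached 1 FPKM.

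Among BMP and TGF-beta genes 28 of 50 reached 1 FPKM. ENG, or endoglin, a co-receptor of TGF-beta and BMP9, stood at 485, 477 and 435 FPKM. FSTL1, a secreted follistatin-like glycoprotein, had a mean of 148 ± 3.45 FPKM. BMP4, a ligand of gut mesenchyme, stood at 108, 114 and 114 FPKM, and BMP5 had a mean of 34.5 ± 1.19 FPKM, whereas BMP3 was listed at 0. TGFB1 had a mean of 58.8 ± 3.49 FPKM.

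Hedgehog genes were expressed on the receiving side. SMO, the signal transducer, stood at 38.8, 39.02 and 36.3 FPKM, GLI3 at 19.9, 17.7 and 17.0 FPKM and PTCH1, the receptor, at 13.9, 15.04 and 13.5 FPKM. The ligands SHH and DHH were listed at 0, and IHH was listed at 0 in replicates 2 and 3. GLI1, whose transcript rises with Hedgehog signalling, stood at 0.747, 0.597 and 0.805 FPKM. Notch genes were at moderate levels, with 14 of 18 at or above 1 FPKM and 0 at or above 100 FPKM. JAG2, a ligand, was the highest of them outside the MAML co-activators at 19.2, 18.9 and 19.4 FPKM, and NOTCH1 had a mean of 3.74 ± 0.403 FPKM.

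Ion channels, of interest because Cajal cells generate slow electrical waves, were few. Of 98 potassium channel genes 17 reached 1 FPKM, led by KCNH2, the voltage-gated channel hERG, at 42.5, 39.5 and 40.1 FPKM, and KCNJ8, the pore of ATP-sensitive channels, at 35.0, 36.8 and 34.0 FPKM. Of 26 calcium channel genes 6 reached 1 FPKM, and CACNA1H, a T-type channel of Cajal cells, stood at 3.39, 3.79 and 3.66 FPKM. Of sodium channel genes 1 of 14, SCN4B (5.06 FPKM), reached 1 FPKM. Of 10 anoctamins ANO1 was the highest and ANO6, a scramblase, had a mean of 18.3 ± 0.895 FPKM. TRPA1, a cation channel of sensory and enterochromaffin cells, had a mean of 13.3 ± 1.08 FPKM.

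Of 95 orphan receptor genes with a GPR symbol 21 reached 1 FPKM. GPR124, an adhesion receptor of WNT signalling in brain vessels, stood at 80.6, 81.8 and 83.2 FPKM and overlapped GPR20. Of 55 keratins only KRT18, at 225, 223 and 261 FPKM, had a mean above 10 FPKM; KRT8, its usual partner, stood at 3.12, 3.28 and 3.49 FPKM. KRT18 was thus expressed without a like level of KRT8 in each library.

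The matrix genes were selective too. COL3A1, a fibrillar collagen, stood at 784, 776 and 777 FPKM, and COL6A1 at 151, 157 and 156 FPKM, but COL1A2 stood at 0, 0.163 and 0.0666 FPKM, and COL1A1 at 4.07, 4.92 and 4.54 FPKM. Of 44 collagen chains 19 reached 1 FPKM. Type III collagen was thus expressed with little of type I. MMP2, a gelatinase, stood at 298, 297 and 299 FPKM and was the only one of 24 matrix metalloproteinases with a mean above 10 FPKM. LAMB1, a laminin chain, had a mean of 153 ± 9.50 FPKM, and CDH11, a mesenchymal cadherin, one of 87.0 ± 3.50 FPKM. IGFBP7, a secreted IGF-binding protein, stood at 286, 291 and 353 FPKM, highest in replicate 3.

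Secreted signals of inflammation were mostly low, with 6 of 43 chemokines and 4 of 46 interleukin genes at or above 1 FPKM. The exception was XCL1, lymphotactin, at 474, 571 and 540.3 FPKM. XCL2, a near-identical copy, stood at 6.63, 11.7 and 10.4 FPKM, and how reads were divided between these copies is uncertain. CCL2, a monocyte chemokine, had a mean of 25.9 ± 2.60 FPKM. Among calcium-binding proteins S100A11 (370.3, 386 and 514 FPKM) and S100A13 (172, 182 and 314 FPKM) were high, both highest in replicate 3, while ANXA2 (0.143, 0.244 and 0.450 FPKM) and its partner S100A10 (0.234, 0.533 and 1.79 FPKM) were low.

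The genes of proliferation were expressed throughout. All 10 genes of DNA replication and mitosis on the list reached 10 FPKM, and MCM7, a replicative helicase subunit, stood at 294, 286 and 336 FPKM, PCNA, the sliding clamp, at 218, 231 and 217 FPKM and RRM2, a ribonucleotide reductase subunit, at 206, 207 and 218 FPKM. CDK4, the D-type cyclin kinase, stood at 158, 147 and 189 FPKM, whereas CDK6, its relative, stood at 0.0725, 0.0646 and 0.01003 FPKM. All D-type cyclins were present, CCND3 at 105, 94.5 and 102 FPKM, and CCND2 (68.7 FPKM) and CCND1 (55.2 FPKM). CDKN2A, the locus of p16 and p14ARF often lost in advanced GIST, stood at 142, 146 and 209 FPKM, highest in replicate 3, and the values do not tell its transcripts apart.

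Genes altered in GIST and related tumours showed extremes. The 4 subunits of succinate dehydrogenase, lost in a KIT-independent form of GIST, were all above 10 FPKM, with SDHA at 128, 113 and 132 FPKM and SDHB at 104, 111 and 112 FPKM. RB1, a tumour suppressor of the cell cycle, had a mean of 26.1 ± 1.504 FPKM. DMD, the dystrophin gene that is deleted in many metastatic GISTs, was by contrast listed at 0 in all 3 libraries. NTRK3, fused in rare stromal tumours, was listed at 0. CDKN1A, the cell cycle inhibitor p21, stood at 2.10, 2.13 and 1.83 FPKM.

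Among 17 genes of the BCL2 family 12 reached 1 FPKM. BAD and BAX, which promote cell death, stood at 56.4, 55.8 and 79.3 FPKM and 48.8, 48.9 and 89.0 FPKM, both highest in replicate 3. MCL1, a survival protein, stood at 43.2, 44.7 and 47.6 FPKM, and BCL2L1, the gene of BCL-XL, had a mean of 42.3 ± 1.78 FPKM. BCL2 itself stood at 7.87, 6.81 and 10.4 FPKM and BCL2L11, the gene of BIM, known for its part in the response of GIST to KIT inhibition, at 2.24, 3.75 and 2.89 FPKM.

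Markers of 14 other cell types were set beside those of GIST. Over the 12 lists other than smooth muscle and fibroblast, 22 of 164 markers (13.4%) reached 1 FPKM and 5 reached 10 FPKM. The fibroblast list, with 71.4% at or above 1 FPKM, came closest to the Cajal cell and GIST list. The smooth muscle list came next with 47.1%, below the 57.5% of all protein-coding genes. Of 14 fibroblast markers 10 reached 1 FPKM, with COL3A1 and THY1 as above, LUM, a small proteoglycan, at 292, 312 and 275 FPKM, VIM, the intermediate filament vimentin, at 119, 122 and 108 FPKM and DCN, or decorin, at 70.4, 64.2 and 68.6 FPKM. PDPN and FAP, surface proteins of activated fibroblasts, were listed at 0. Of 17 smooth muscle markers 8 reached 1 FPKM. CALD1, or caldesmon, which GISTs commonly express, stood at 486, 452 and 474 FPKM, SMTN, or smoothelin, at 94.2, 91.7 and 91.1 FPKM and ACTA2, smooth muscle actin, at 54.4, 51.3 and 50.7 FPKM. Other smooth muscle markers were low. MYH11, the smooth muscle myosin, stood at 0.166, 0.0791 and 0.155 FPKM, ACTG2 at 0.695, 0.592 and 0.547 FPKM, and DES, or desmin, was listed at 0.

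Markers of gut epithelium were low. None of 12 gastric and none of 13 intestinal epithelium markers reached 1 FPKM, and MUC6, TFF1, TFF2, CDX1 and MUC2 were listed at 0. CDH1, the epithelial cadherin, stood at 0.0201, 0.0230 and 0 FPKM, and EPCAM at 0.443, 0.795 and 0.877 FPKM. On the general epithelium list 4 of 18 markers reached 1 FPKM, KRT18 far above the others as given above. Of 21 neuronal markers 3 reached 1 FPKM, of which TUBB3, a tubulin also made by dividing cells, had a mean of 55.0 ± 3.97 FPKM. SOX10 and S100B, which mark the glia and Schwann cells of the gut and its nerve sheath tumours, were listed at 0, and 2 of 10 glia markers reached 1 FPKM, ERBB3, a neuregulin receptor, the highest at 8.10, 7.69 and 7.44 FPKM.

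Mast cells and melanocytes, which are among the other cell types that depend on KIT, were not seen in their markers. Of 10 mast cell markers only GATA2 reached 1 FPKM, and CPA3 and HDC, the carboxypeptidase and histidine decarboxylase of mast cells, were listed at 0. Of 9 melanocyte markers, MITF (1.55, 1.73 and 1.86 FPKM) and PMEL reached 1 FPKM in the mean, and TYR and DCT, enzymes of pigment synthesis, were listed at 0. Of 20 blood markers CD68 alone reached 1 FPKM, and PTPRC, the common leukocyte antigen, stood at 0.0196, 0 and 0 FPKM. Of 14 endothelial markers EGFL7 (65.2, 71.3 and 74.8 FPKM) was the highest, while PECAM1 was listed at 0 in replicates 1 and 2 and VWF in replicate 1. In all, 3 of the 14 reached 1 FPKM, so that CD34, which endothelium also carries, was high with PECAM1 and VWF at or near 0 but with EGFL7 expressed. Neither CD34 nor ENG, the co-receptor given above, is on this list, and both were higher than EGFL7.

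Single genes stood out in other lists. FABP4, a fatty acid carrier known from adipocytes and capillaries, stood at 485, 562 and 641 FPKM. Of the 8 adipocyte markers 3 reached 1 FPKM, FABP4 among them, while ADIPOQ, PLIN1 and LEP were listed at 0. TNNT1, the slow skeletal troponin T, stood at 35.0, 36.8 and 52.2 FPKM, with 2 of 22 striated muscle markers at or above 1 FPKM. EGFL7, FABP4 and TNNT1 were each the only marker of their list with a mean at or above 10 FPKM. In RNA from bulk cultures, few cells with a high level and many with a low one cannot be told apart.

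**Figure D5:**
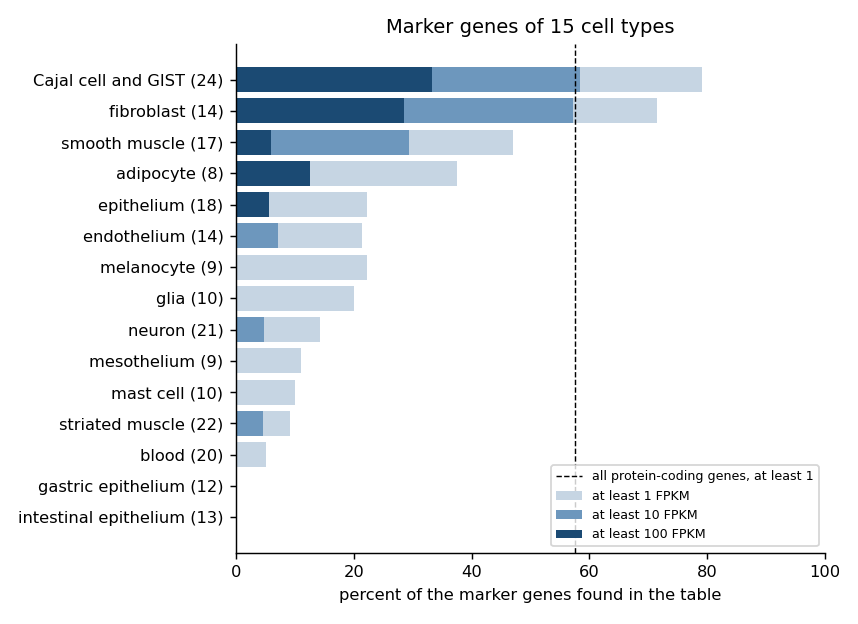
Percent of the marker genes of 15 cell types (y axis, number of genes in brackets) with a mean of at least 1, 10 and 100 FPKM in the 3 Luciferase sgRNA libraries (x axis), and the share of all protein-coding genes at or above 1 FPKM (dashed line, 57.5%). The bars at 1 FPKM of the Cajal cell and GIST list and of the fibroblast list pass the dashed line; those of gastric and intestinal epithelium are at 0.

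The most abundant transcripts were mostly those of the cytoskeleton, ribosome and energy metabolism, with H19, PLAT, CD34 and APP also among them. TMSB4X, an actin-binding peptide, was the highest at 5374, 5859 and 7358 FPKM, followed by H19 and ACTB, or beta-actin, at 4146, 4007 and 4114 FPKM. Of the 30 highest entries 13 were ribosomal protein genes, RPL8 the first at 2418, 2614 and 3930.2 FPKM. The other 17 included GAPDH and ALDOA, enzymes of glycolysis (2477, 2443 and 2709 FPKM for the first and 1366, 1341 and 1404 FPKM for the second), the ferritin chains FTL (1573 ± 18.0 FPKM) and FTH1 (1469, 1502 and 1705 FPKM), and the actin-binding proteins TMSB10, PFN1 and CFL1. PLAT, CD34 and APP, the amyloid precursor protein at 1787, 1728 and 1810.1 FPKM, were the transcripts of surface or secreted proteins among them. ACTG1, TUBA1B, TPT1 and UBB made up the rest.

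Several ribosomal protein genes owed their place to a single library. RPS29 stood at 620.1, 731 and 2987 FPKM, RPL38 at 719.5, 850.5 and 2424 FPKM and RPS21 at 905, 1119 and 2702 FPKM. Without replicate 3 their means were 675, 785 and 1012 FPKM. Among genes at or above 10 FPKM, 96 had a highest value at least 2 times the lowest, and replicate 3 was the highest in 92 of them. Of 360 small nucleolar RNA genes 2 reached 1 FPKM in the mean, and they differed in opposite directions: SNORA81 was listed at 0 in replicates 1 and 2 and at 496 FPKM in replicate 3, and SNORD17 stood at 34.7, 24.0 and 0 FPKM.

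The 10, 100 and 1000 highest entries held 6.55%, 25.1% and 59.97% of the summed mean FPKM. Families that every cell uses were nearly complete: 72 of 77 cytosolic ribosomal protein genes reached 1 FPKM with a median of 539 FPKM, as did 75 of 76 mitochondrial ribosomal protein genes, 35 of 39 proteasome genes and 46 of 47 genes of respiratory complex I. Among the members below 1 FPKM, RPS18, MRPS18B, PSMB8 and PSMB9 lie in the chromosome 6 neighbourhood and are not read as silent. HSPA8, a constitutive chaperone, had a mean of 1165 ± 21.8 FPKM, and SLC25A5, the mitochondrial ADP and ATP carrier, was the highest of 364 solute carriers at 616 ± 30.6 FPKM.

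Families tied to specialised tissues were at the other end. None of 395 olfactory receptors, 27 taste receptors, 91 keratin-associated proteins, 45 defensins or 25 MAGE genes reached 1 FPKM. Among these 25 MAGE genes, of a kind that many tumours re-express, 22 were listed at 0 in all 3 libraries. The gene with the highest mean, MAGEB18, reached 0.299 FPKM in replicate 3 and was listed at 0 in replicates 1 and 2. The others above 0 were MAGEB2 and MAGEA8. Any MAGE genes beyond these 25 are not described. Of 70 protocadherins 22 reached 1 FPKM, and of 521 ZNF genes, the largest family of transcription factors, 338 (64.9%) did but 0 reached 100 FPKM. ZNF664, the highest, had a mean of 94.8 ± 3.97 FPKM.

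The spread between the libraries was small for most genes. The median coefficient of variation (SD over mean) was 8.28% for entries at or above 1 FPKM, 6.64% at or above 10 FPKM and 11.4% from 1 to under 10 FPKM. Without replicate 3 the first of these medians was 5.11%, so this library moved it by more than 1.5 times. In 10953 entries all 3 values reached 1 FPKM, and 55 entries were listed at 0 in a library and at or above 1 FPKM in another.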

How the data were processed

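PolyA RNA of 9 GIST-T1 libraries was measured, and the 3 labelled Luciferase sgRNA were used, numbered as in their titles. The authors deposited FPKM, 1 value per gene symbol and library, in a table of 23610 entries. STAR, Cufflinks and hg19 are named per the submitters' processing notes. For versions, annotation, filters and scaling between libraries: not given in the sources used here. In 28 entries a spreadsheet date replaced the symbol, and none is named. No counts are given, so the absolute depth is unknown; relative depth came from the most frequent log2 ratio of values between 0.001 and 0.1 FPKM. Near-identical copies and overlapping genes are uncertain.

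Means, SDs and counts at 1, 10 and 100 FPKM were computed with Python 3.11.15, pandas 2.3.3 and numpy 2.4.6, with no pseudocount and no filter; values below 1e-06 were read as 0. The depth estimate was tested on simulated data without a length difference or scaling between libraries. That test cannot tell how far either would shift the estimate in these libraries. Alternatives were other means (pseudocounts of 1 and 0.1), levels, scalings and leaving out each replicate. Members, lists and rules were chosen with earlier results of these data known. The rule for named genes takes the 30 highest entries, the 20 highest of the listed transcription factors, the 9 markers, all HOX genes, up to 6 highest and 4 below 1 FPKM of each list, and up to 4 highest of each family; not every such gene is given. Chosen after their values were seen were PROM1, PDE3A, PRKCQ, KITLG, MYC, HAND2, FOXF2, PRRX1, PDGFRA, MET, AXL, IGF1R, INSR, MAP2K2, MAPK3, WNT5A, NOTCH1, COL1A1, ANXA2, S100A10, CCND1, CCND2, CCND3, RB1, CDKN1A, BCL2, BCL2L11 and the genes named for the neighbourhoods on chromosomes 6 and X.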

Additional observations from a re-analysis of the deposited data

How the results depend on the processing

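The counts at fixed levels depend on where the level is set. With the level doubled, 4368 entries in place of 6577 reached the middle level (10 FPKM), 377 in place of 892 the high level (100 FPKM), and 87 in place of 155 transcription factors the middle level. With the level halved 1953 entries reached the high level, and 2009 did when each library was rescaled to a sum of 1000000. The share of summed FPKM was 17.4% in the 50 highest entries and 22.5% in the 100 highest without ribosomal protein genes, against 25.1%. The median CG of expressed less that of genes listed at 0 was 9 in 100 bases and 19 in 250 bases.

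Leaving out 1 replicate at a time gave 11286 to 11316 entries at or above 1 FPKM, 6570 to 6590 at or above 10 FPKM and 837 to 915 at or above 100 FPKM. It gave 155 to 156 transcription factors, 9 markers, 25 to 26 HOX genes, a share of 23.8% to 25.8% and 580 to 591 list members in place of 584. The median coefficient of variation ran from 5.11% (without replicate 3) to 8.15%, against 8.28%. RPS29, RPL38 and RPS21 moved by over 1.5 times without replicate 3. No paired analysis was possible because 1 group was described and no test was made. Without counts, how far depth limits the values near 0 cannot be given.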
